A study of Homo sapiens with 21 samples.

Results

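This comparison set the RNA sites of AGO2 beside those of FUBP3 in 1 fluorescent PAR-CLIP library each, both made with RNase I at 0.15 U/ul. These were 2 of the 21 samples in the series, 17 of which had a file of called clusters. Both libraries came from Flp-In T-REx 293 cells, an established human kidney-derived line, each carrying a stably integrated FLAG-HA tagged transgene, for AGO2 in the first and for FUBP3 in the second. The cells of both were fed 4-thiouridine at 100 uM for 8 to 12 h, crosslinked with ultraviolet light at 0.3 J/cm2, and the tagged protein was taken with anti-FLAG beads. Crosslinking leaves T-to-C changes in the reads at labelled bases, and a cluster is a stretch of overlapping reads that carries such changes. The tagged proteins are transgenes, so their amount may differ from that of the native proteins. Of the AGO2 gene itself the AGO2 library had 994 reads, none of them in its 3' UTR, and the FUBP3 library had 362, of which 282 were in the 3' UTR. The FUBP3 gene had no cluster in the AGO2 library and 580 reads in the FUBP3 library. The labels describe a mild detergent lysis for cytoplasmic proteins and a stronger one for KHSRP, and do not say which was used for FUBP3. Transcript abundance was not measured here, so a high read count can reflect an abundant RNA. With 1 library a group there was no spread between replicates and no test. The intervals given are Wilson intervals at 95% for shares of clusters and Poisson counting intervals for ratios of reads. Only counting error is in them, and neither reads nor clusters count independent molecules.

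AGO2 is the Argonaute protein that holds a microRNA and is led by it to messenger RNAs, mostly in 3' UTRs. The pairing that matters most runs between the seed of the microRNA and a matching site in the target, and AGO2 then recruits TNRC6 proteins, which lower translation and speed decay. FUBP3 belongs to the far upstream element-binding family, whose KH domains bind single-stranded, U-rich nucleic acid. KHSRP, a relative in the same family, is known for binding AU-rich elements and some microRNA precursors.

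The sequences below are those the comparison turns on. The first 5 are mature microRNAs from RefSeq (GRCh38.p14) with the seed, bases 2 to 8, in capitals. The first 3 of them share 1 seed and come from genes on chromosomes 13, 13 and 7. For each of the last 2, 1 gene was taken, MIR19B1 and MIR92A1, both on chromosome 13.
hsa-miR-17-5p: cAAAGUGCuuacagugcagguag
hsa-miR-20a-5p: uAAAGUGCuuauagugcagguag
hsa-miR-93-5p: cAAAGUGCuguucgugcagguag
hsa-miR-19b-3p: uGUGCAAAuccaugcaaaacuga
hsa-miR-92a-3p: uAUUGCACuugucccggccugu

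The next 5 are stretches of AGO2 3' UTR clusters that overlapped a FUBP3 cluster, with the match to a seed in capitals. They come from the strongest overlapping pairs that hold a seed match, ranked by the smaller of both read counts.
KLHL15, chrX:23986365-23986394, minus strand, hg38, match to miR-92: cttagaatattgGTGCAATattgcaatgcc
MYLIP, chr6:16148049-16148078, plus strand, match to miR-19: tgcatttgtttcTTTGCACagacattttgt
ELOVL5, chr6:53267673-53267702, minus strand, match to miR-19: ccatgctttaatTTTGCACattcgtactat
KPNA2, chr17:68046686-68046715, plus strand, match to miR-17: tttgttactgtaGCACTTTttacactgaaa
CSNK1A1, chr5:149494871-149494900, minus strand, match to miR-17: atttactatgcacttagactatGCACTTTt

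The last 4 are stretches of the most read FUBP3 3' UTR cluster of each gene, chosen as the 30 bases that hold the most of 5 short motifs (TATAT, then TGTA, then TTGT, then TTTTT, and lastly ATTTA), which are in capitals and can overlap. They were picked for these motifs and illustrate what was counted over all clusters.
PMAIP1, chr18:59903779-59903808, plus strand, hg38: tccaTATATgcattggtgaaTATATATGTA
HNRNPA2B1, chr7:26191865-26191894, minus strand: gttaagaagctgTTGTAcATTTAtgATTTA
KLHL15, chrX:23985313-23985342, minus strand: catagcaTTTTTTTcaagtttaTTTTTTGT
TMPO, chr12:98535512-98535541, plus strand: ttatTTGTTGTcttctgaaaTGTAcaTGTA

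The AGO2 library was the smaller, and its reads were more varied. It held 2425 clusters with 295889 reads, 221565 of them distinct, while the FUBP3 library held 161821 clusters with 1683771 reads, 322082 of them distinct. A cluster rested on a median of 8 distinct sequences in AGO2 and 1 in FUBP3. Clusters of a single distinct sequence made up 0.577% of AGO2 clusters and 71.0% of FUBP3 clusters. The smallest cluster held 5 reads in both, so an RNA without a cluster may still have had reads.

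AGO2 reads lay mostly on short noncoding RNAs, and FUBP3 reads on introns and 3' UTRs. By clusters, 3' UTRs held 38.7% of AGO2 (36.8 to 40.7) and 19.0% of FUBP3 (18.8 to 19.2), and introns held 10.5% and 64.3%. By reads the order of the 3' UTR shares was the opposite, with 3.97% in AGO2 and 37.2% in FUBP3. The order by clusters also depended on how well clusters were supported. Among clusters with at least 3 distinct sequences, AGO2 was 24.9 percentage points below FUBP3, and against only the most read FUBP3 clusters, as many as AGO2 had, it was 46.9 points below. Coding exons held 15.5% of AGO2 clusters (14.1 to 17.0) and 1.44% of FUBP3 clusters.

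**Figure D1:**
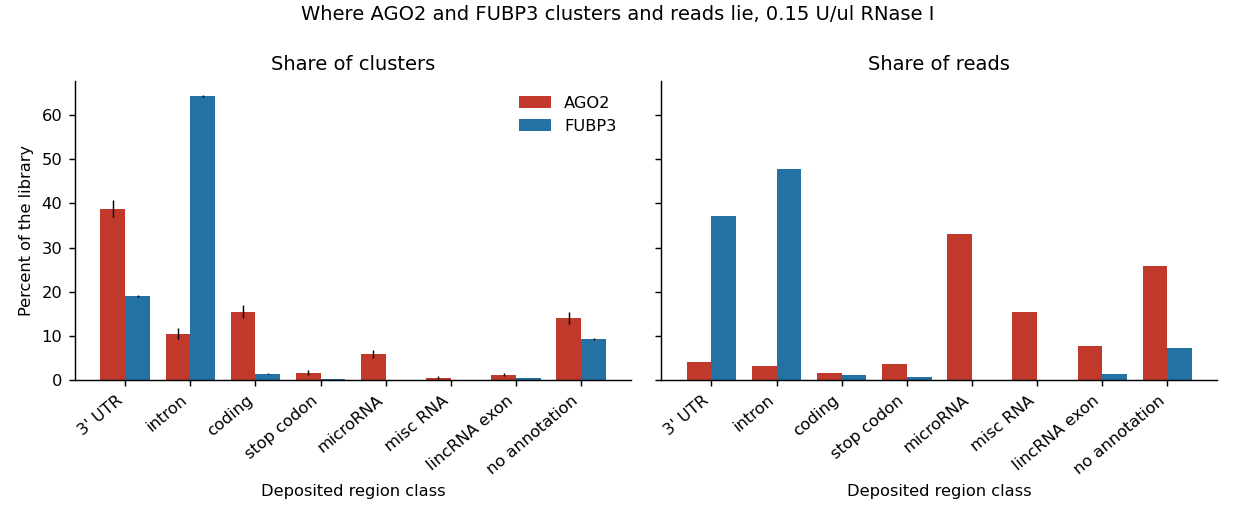
Percent of each library's clusters (left, with Wilson intervals) and reads (right, no error) in 8 deposited region classes, AGO2 in red and FUBP3 in blue. FUBP3 leads in introns in both panels, whereas for 3' UTRs AGO2 leads by clusters (38.7% against 19.0%) and FUBP3 by reads (37.2% against 3.97%).

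Clusters on RefSeq short RNA genes held 80.7% of AGO2 reads and 0.189% of FUBP3 reads. Transfer RNA genes had 88156 AGO2 reads (29.8%) and 1836 FUBP3 reads. Of these AGO2 reads, 57939 lay in clusters that the deposited files left without annotation, and the most read AGO2 cluster, deposited under the lincRNA name RP4-561L24.3 with 21098 reads, lay on the arginine tRNA gene TRR-TCT1-1. Vault RNAs, short transcripts named for the vault particle, had 44480 AGO2 reads and 234 FUBP3 reads. MicroRNA genes had 93766 AGO2 reads (31.7%) and 194 FUBP3 reads. Copies of tRNA and vault RNA genes are alike, so the split between single genes is uncertain.

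Among the microRNAs, the family of miR-17, miR-20a and miR-93 stood out in AGO2. Its genes had 37521 AGO2 reads, 12.7% of the library, and no FUBP3 cluster. The single microRNA gene with the most AGO2 reads was MIR320A, of another family, with 13506. MIR93 had 13193 AGO2 reads, MIR20A had 12301 and MIR17 had 9129. The let-7 family, known for holding back growth genes, had 4603 AGO2 reads and 10 FUBP3 reads. The miR-130 family had 4055 AGO2 reads, and the miR-92/25/32 family had 1434, all on MIR32, with no FUBP3 cluster in either family. In the deposited microRNA class, 128 genes had an AGO2 cluster, 15 had a FUBP3 cluster and 6 had both. That class was not only microRNAs. It also held tRNA genes such as TRI-TAT2-3, with 4069 AGO2 reads, and TRI-TAT2-2, which was among the 6.

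Histone mRNAs were the other strong class of AGO2. Replication-dependent histone genes, whose mRNAs end in a conserved stem-loop and not in a poly(A) tail, had 14150 AGO2 reads in 36 genes and 753 FUBP3 reads in 15 genes. With clusters on short RNA genes set aside, they held 24.7% of AGO2 reads and 0.0448% of FUBP3 reads. A hairpin of a 6-base stem and a 4-base loop, with every stem base paired in the Watson-Crick manner, was in 23 of 68 AGO2 histone clusters, and these held 87.5% of the histone reads. It was in 2 of 61 FUBP3 histone clusters. Outside histone genes the same kind of hairpin was in 1.23% of AGO2 clusters (0.858 to 1.76) and 0.835% of FUBP3 clusters. HIST1H4H, a gene of histone H4, had 3188 AGO2 reads and no FUBP3 cluster, and its main AGO2 cluster is shown at the hairpin, with the stem in capitals.
HIST1H4H, chr6:26285127-26285156, minus strand, hg38: ttcaaccaaaGGCCCTtttcAGGGCCgccc

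Most AGO2 target genes also had a FUBP3 cluster, while few FUBP3 genes had one of AGO2. Of 1470 genes with an AGO2 cluster and 11547 with a FUBP3 cluster, 1130 were shared, which is 76.9% of the AGO2 genes (74.6 to 79.0) and 9.79% of the FUBP3 genes. In 3' UTRs, 602 genes were shared among 675 of AGO2 and 6673 of FUBP3, 89.2% of the AGO2 genes (86.6 to 91.3) and 9.02% of the FUBP3 genes. This share was lower with a smaller FUBP3 set. Against only the 939 most read FUBP3 3' UTR clusters, as many as AGO2 had, 191 of 675 genes were shared, or 28.3% (25.03 to 31.8). With the 939 most read 3' UTR clusters of KHSRP the value was 23.7% (20.7 to 27.1), and with the 708 clusters of AGO2 itself at 1.5 U/ul it was 43.1% (39.4 to 46.9). Sharing was lower outside 3' UTRs, at 62.9% of AGO2 genes for introns and 38.6% for coding exons, where 8195 and 1718 FUBP3 genes stood against it.

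Genes read deeply in FUBP3 3' UTRs were more often AGO2 targets. Of the 100 genes with the most FUBP3 3' UTR reads, 68 had an AGO2 3' UTR cluster. Among the 1000 most read the number was 278, and among the 1000 least read it was 39. Shared genes had a median of 129.5 FUBP3 3' UTR reads, and FUBP3 genes without an AGO2 3' UTR cluster had 30. The AGO2 side showed little of this, with medians of 9 reads in shared genes and 8 in AGO2 genes without a FUBP3 3' UTR cluster. The part of transcript abundance or 3' UTR length in this was not tested.

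AGO2 3' UTR genes with no FUBP3 cluster at all numbered 36 of 675, and histones led them by reads. HIST1H4J had 298 AGO2 3' UTR reads, HIST4H4 had 205 and HIST1H2BF had 64. The next was HOXC8, a homeobox factor of body patterning, with 19 reads, and the rest of the 10 most read lay between 11 and 17. Of the 36 genes 5 were histones, and of all 675 genes 8 were.

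The most read FUBP3 3' UTR genes without any AGO2 cluster had over 1000 reads each, while the median over FUBP3 genes without an AGO2 3' UTR cluster was 30. TMPO, which codes for proteins of the nuclear lamina, had 2413 FUBP3 3' UTR reads in 24 clusters. An equal share of 3' UTR reads would be 45.3 reads in the AGO2 library. TOMM20, a receptor for import into mitochondria, had 1941 FUBP3 3' UTR reads, SDE2 had 1732, and TMED7, which sorts cargo in the secretory pathway, had 1551. APP, the amyloid precursor, had 1226, and the transcription factor YY1 had 1071. The other 4 of the 10 most read, FEM1B, LIN7C, SMAD5 and MTPN, lay between 1048 and 1465 reads. At 1.5 U/ul an AGO2 cluster did appear in FEM1B and in LIN7C.

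In the common 3' UTRs, AGO2 clusters lay close to FUBP3 clusters. Of 863 AGO2 clusters in the 602 genes, 321 overlapped a FUBP3 cluster by at least 1 nt, or 37.2% (34.0 to 40.5). The median gap between cluster edges was 22 nt, with 60.5% of AGO2 clusters within 50 nt and 92.6% within 500 nt. The values depended on which FUBP3 clusters were used. Against the 939 most read FUBP3 clusters the median gap was 130 nt and 29.2% overlapped (24.8 to 34.2). With a FUBP3 cluster of at least 3 distinct sequences the median gap was 43 nt and 34.0% overlapped. At 1.5 U/ul in both proteins the median gap was 69 nt and 24.3% overlapped (21.0 to 28.0).

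KHSRP clusters lay farther from the same AGO2 clusters. In the genes with 3' UTR clusters of all 3 proteins there were 708 AGO2 clusters. Of these, 41.4% (37.8 to 45.0) overlapped FUBP3 and 25.6% (22.5 to 28.9) overlapped KHSRP, with median gaps of 16 and 96.5 nt. FUBP3 had 30712 3' UTR clusters in all and KHSRP had 15433. With 939 most read clusters of each, overlap was 29.2% for FUBP3 (24.8 to 34.2) and 20.4% for KHSRP (16.2 to 25.3). These ranges overlap, and they rest on different sets, 359 AGO2 clusters in 191 genes and 299 in 160 genes. AGO2 at 1.5 U/ul, with only 708 3' UTR clusters, overlapped 47.6% of the AGO2 clusters in 291 common genes (43.3 to 52.0).

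Counted by bases, FUBP3 and KHSRP both held more AGO2 sequence than the share they covered, over 602 and 481 genes. Between the outermost clusters of each common 3' UTR, FUBP3 clusters covered 15.5% of the bases, and 28.4% of AGO2 cluster bases lay inside them. KHSRP clusters covered 10.6% and held 19.8% of the AGO2 bases, so by this measure nothing was particular to FUBP3. Where AGO2 and FUBP3 clusters did not overlap, the FUBP3 cluster lay downstream in 324 of 542 cases, or 59.8% (55.6 to 63.8). For KHSRP this was 59.9% (55.7 to 63.9), and for AGO2 at 1.5 U/ul it was 46.8% (40.8 to 52.8). The part of cluster position along the 3' UTR in this was not tested.

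**Figure D2:**
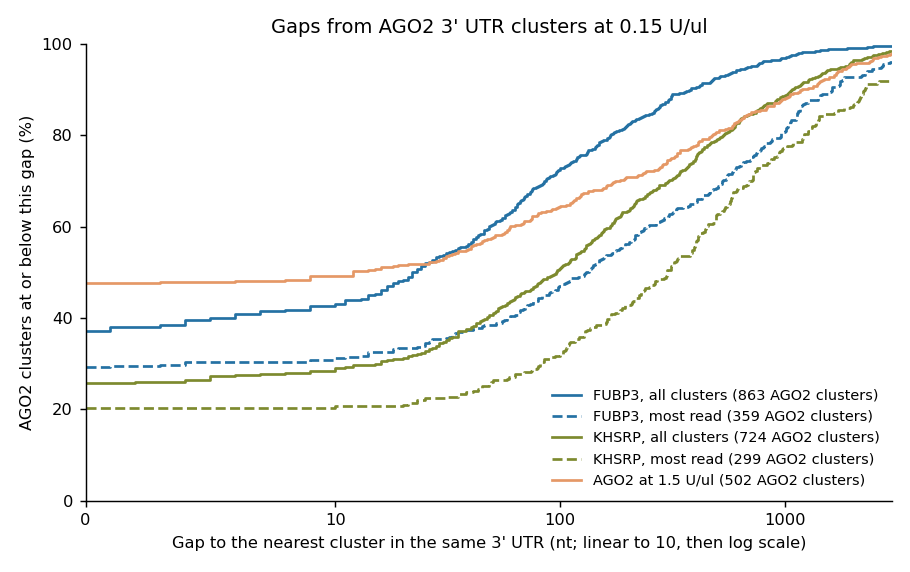
Cumulative percent of AGO2 3' UTR clusters (vertical) at or below each gap in nt to the nearest cluster of another library in the same gene (horizontal, linear to 10 and then log). The curve for all FUBP3 clusters starts at 37.2% and lies above KHSRP throughout, while AGO2 at 1.5 U/ul starts higher, at 47.6%, and is then passed by FUBP3.

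Shared genes were not the same as shared sites. Of the 602 common 3' UTRs, 242 held an AGO2 cluster that overlapped a FUBP3 cluster, 40.2% (36.4 to 44.2), and 360 held none. A common 3' UTR had a median of 1 AGO2 cluster and 6 FUBP3 clusters. Seen from FUBP3, 318 of 5370 clusters in the common 3' UTRs overlapped AGO2, or 5.92% (5.32 to 6.59), and these held 20.3% of the reads. The overlapping FUBP3 clusters had a median of 28 reads and 43 nt, against 13 reads and 32 nt for the others.

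KLHL15, a substrate adaptor of a CUL3 ubiquitin ligase, had the strongest shared pair. Its 3' UTR held 321 AGO2 reads in 15 clusters and 4370 FUBP3 reads in 28 clusters, and 12 of the 15 AGO2 clusters overlapped FUBP3. The peaks differed in place. The most read AGO2 cluster, with 124 reads and a match to the miR-92 seed, overlapped a FUBP3 cluster of 90 reads, while the most read FUBP3 cluster, with 947 reads, met AGO2 clusters of 11, 6 and 10 reads.

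In MYLIP, a ubiquitin ligase for the LDL receptor, the peaks coincided. A single AGO2 cluster of 70 reads with a match to the miR-19 seed overlapped the most read FUBP3 cluster, of 69 reads, over nearly its whole length. The AGO2 and FUBP3 3' UTR sums were 94 and 210 reads.

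The remaining strong pairs had more FUBP3 than AGO2 reads, except for 1 gene, in libraries with 11751 AGO2 and 625912 FUBP3 3' UTR reads. By share of 3' UTR reads all of these genes but ZNF711 leaned to AGO2. The log2 ratios were 2.93 in KPNA2, 2.22 in CSNK1A1, 2.13 in ELOVL5, 1.64 in TSC22D3 and 0.69 in SRSF2. ZNF711 stood at -0.27 (-0.70 to 0.16). KPNA2, an importin of nuclear transport, had 35 AGO2 and 244 FUBP3 reads at its only 3' UTR site of either protein. ELOVL5, a fatty acid elongase, had 35 and 245 reads at its pair, and CSNK1A1, casein kinase 1 alpha, had 30 and 51. TSC22D3, a glucocorticoid-induced leucine zipper protein, had 36 and 128 reads at its strongest pair, and all 5 of its AGO2 3' UTR clusters overlapped FUBP3. PRICKLE1, of the planar cell polarity pathway, was the 1 gene with more AGO2 than FUBP3 reads, at 73 and 30 in its pair. It stood at 5.12 by share.

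PMAIP1, the cell death protein NOXA, had the most FUBP3 3' UTR reads, 5534 in 7 clusters that left few gaps. Its AGO2 reads numbered 61 in 6 clusters, and all 6 overlapped FUBP3.

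**Figure D3:**
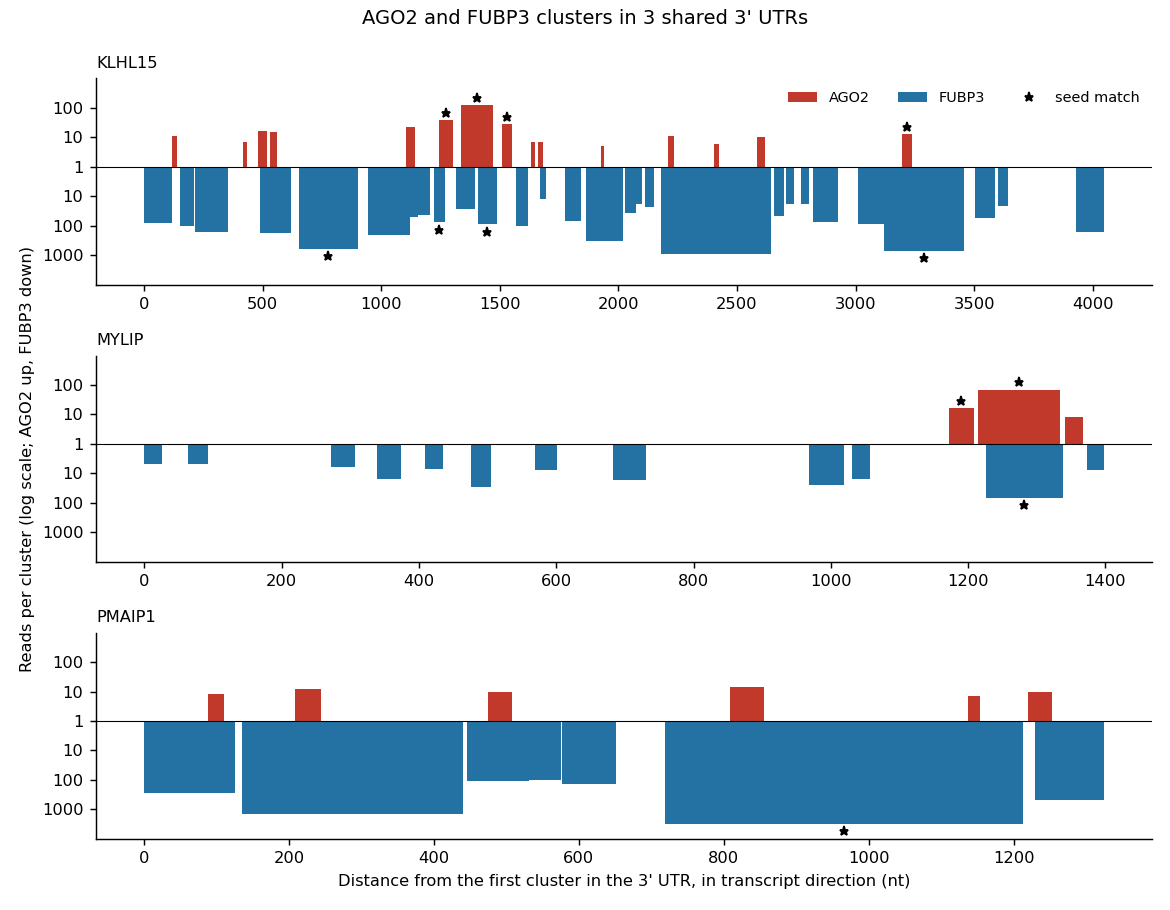
AGO2 clusters (red, upward) and FUBP3 clusters (blue, downward) along the 3' UTRs of KLHL15, MYLIP and PMAIP1, by distance in nt from the first cluster and reads per cluster on a log scale, with stars at clusters that match 1 of 14 microRNA seeds. The AGO2 peak of KLHL15 (124 reads) lies apart from its FUBP3 peak (947 reads), and those of MYLIP (70 and 69 reads) coincide.

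Seed matches marked AGO2 sites and U-rich motifs marked FUBP3 sites. A match to the seed of at least 1 of 14 microRNA families was in 34.4% of AGO2 3' UTR clusters (31.4 to 37.5) and 3.90% of FUBP3 3' UTR clusters (3.69 to 4.13). Per 1000 nt of cluster there were 16.05 and 1.27 matches. The largest families in AGO2 were miR-15 with 70 clusters, miR-19 with 62 and miR-17 with 58. The commonest hexamers in AGO2 3' UTR clusters were TGCTGC first, then TGCACT, then TTGCAC, and those in FUBP3 were TTTTTT first, then TTTTGT, then TGTTTT. T made up 28.5% of AGO2 and 40.1% of FUBP3 bases there. TTGT was in 15.3% of AGO2 clusters (13.2 to 17.8) and 42.1% of FUBP3 clusters, and TTTTT in 4.05% and 21.8%. Motifs were searched on the transcript strand only, TTGT and TGTA can overlap, and a match is not a measured site of binding.

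Clusters where both proteins met share sequence by construction, so motifs of either are partly built in. Of the 321 AGO2 clusters that overlapped FUBP3, TGTA was in 22.4% (18.2 to 27.3), against 10.5% (8.21 to 13.4) of the 542 that did not. TTGT was in 21.8% (17.6 to 26.6) and 12.4% (9.85 to 15.4). Per 1000 nt these were 8.71 and 4.14 for TGTA and 8.19 and 5.02 for TTGT. A seed match was in 30.5% (25.7 to 35.8) and 36.3% (32.4 to 40.5), ranges that overlap. For let-7 the counts were 4 of 321 and 29 of 542. Of the FUBP3 clusters in common 3' UTRs, 25.2% of those that overlapped AGO2 held a seed match (20.7 to 30.2), against 4.49% of the others (3.96 to 5.10), or 4.82 and 1.27 matches per 1000 nt. Of the 98 overlapping AGO2 clusters with a match, 63 had one whole inside the FUBP3 cluster.

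**Figure D4:**
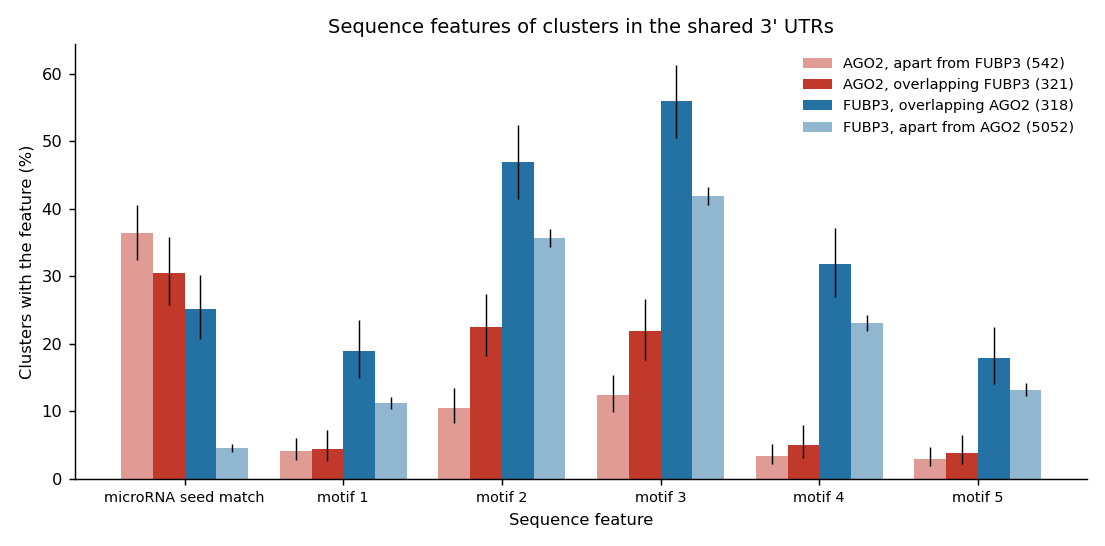
Percent of clusters in common 3' UTRs that hold a microRNA seed match or motifs 1 to 5 (TATAT first, then TGTA, then TTGT, then TTTTT, and lastly ATTTA), with Wilson intervals and the number of clusters in the legend, AGO2 in red and FUBP3 in blue, in full colour where the proteins overlap. Seed matches were in 30.5% of overlapping AGO2 clusters and 25.2% of overlapping FUBP3 clusters, but in 4.49% of FUBP3 clusters apart from AGO2.

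The share of T-to-C reads per 3' UTR cluster had a median of 83.3% in AGO2 and 100% in FUBP3. The order turned with a minimum of 3 distinct sequences, at 83.3% in AGO2 and 66.7% in FUBP3.

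By share of 3' UTR reads, 110 genes had at least 20 such reads in each library. AGO2 was higher by 4-fold or more in 68 of them (61.8%) and FUBP3 in none (0%), with a median log2 ratio of AGO2 over FUBP3 of 2.49. The minimum leaves little room for a FUBP3 call. In an AGO2 library of 11751 3' UTR reads, 20 reads equal the share of 1065 FUBP3 reads, and a gene at that minimum would need 4261 FUBP3 reads to be called, which 2 genes had. Scaled to the median of the compared genes instead, AGO2 led by 4-fold in 22 genes and FUBP3 in 16. The genes nearest the threshold were SRSF3 at 2.00 inside it and DDIT4, also at 2.00 after rounding, outside it.

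Within these genes AGO2 led farthest in histones. HIST2H2BE had 545 AGO2 and 25 FUBP3 3' UTR reads, a log2 ratio of 10.18 (9.60 to 10.76), and HIST1H2BN had 101 and 22. H2AFX, an H2A variant of the response to DNA breaks, had 121 and 60 reads, a log2 ratio of 6.75. In none of the 3 genes did an AGO2 3' UTR cluster overlap FUBP3, which held for 34 of all 110 genes compared. These 3' UTR ratios had no counterpart at 1.5 U/ul, where HIST2H2BE and H2AFX had no 3' UTR cluster of either protein and HIST1H2BN had none of FUBP3. In all reads, HIST2H2BE stood at 4.197 at 0.15 U/ul and 4.04 at 1.5 U/ul. BCL2L11, the cell death protein BIM and a known target of the miR-17 cluster, had 93 AGO2 3' UTR reads in 2 clusters and FUBP3 reads in 5 others, none of them overlapping, a log2 ratio of 5.53 (5.13 to 5.93). SESN2, a stress-induced sestrin, had 99 and 118 reads, a log2 ratio of 5.48, and 2 of its 6 AGO2 clusters overlapped FUBP3. RAB5B, a GTPase of early endosomes, had 55 and 36 reads with no overlap, a log2 ratio of 6.35, and 4.05 at 1.5 U/ul.

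FUBP3 led in fewer of these genes, and by less. HNRNPA2B1, which binds pre-mRNA, had 25 AGO2 and 2982 FUBP3 3' UTR reads, a log2 ratio of -1.16 (-1.73 to -0.60). At 1.5 U/ul it stood at -0.06, with only 12 AGO2 3' UTR reads. ARPP19, an inhibitor of phosphatase PP2A in mitosis, had 22 and 2074 reads and a log2 ratio of -0.82. PMAIP1 stood at -0.77 (-1.13 to -0.40), and at -0.56 at 1.5 U/ul. IRF2BP2, a transcriptional corepressor, had 26 and 2119 reads and a log2 ratio of -0.61 (-1.17 to -0.06). HNRNPA0, ZNF711, PANK3, TSPYL1, PEG10 and SCML1 lay between -0.27 and -0.02. The interval of each of them took in an equal share, so their direction is uncertain. The order also differed at 1.5 U/ul. SCML1 stood there at -2.35, PEG10 at -1.73 and ZNF711 at -1.20, with 10, 5 and 16 AGO2 3' UTR reads. HNRNPA0 stood at -0.40 and TSPYL1 at 1.68, and PANK3 had no AGO2 cluster. Genes high in both, by the smaller of the 2 shares, were led by KLHL15, with 2.73% of AGO2 and 0.698% of FUBP3 3' UTR reads, and PMAIP1, with 0.519% and 0.884%. NUFIP2, a partner of the fragile X protein, had 77 reads in 9 AGO2 clusters and 2030 reads in 66 FUBP3 clusters. SRSF2, an SR splicing factor, had 58 and 1911 reads, and all 4 of its AGO2 clusters overlapped FUBP3. SOX4, a developmental transcription factor, had 34 and 1657 reads, with all 3 AGO2 clusters overlapping.

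**Figure D5:**
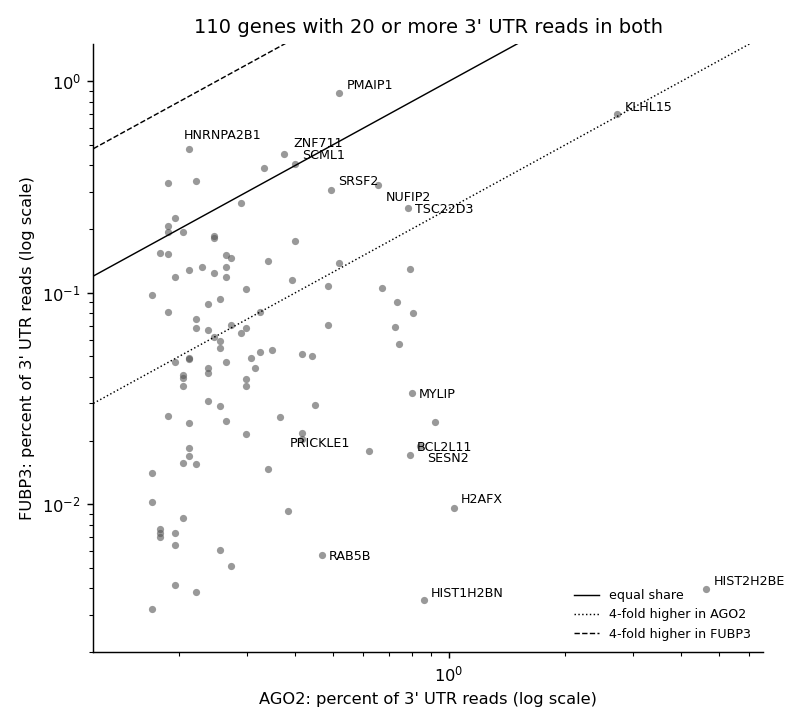
Share of 3' UTR reads in AGO2 (horizontal) and FUBP3 (vertical), both log scales, for the 110 genes with at least 20 such reads in each library. Most points lie right of the line of equal share, 68 of them past 4-fold, and HNRNPA2B1 and PMAIP1 lie left of it.

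By share of all reads, 58 genes had at least 50 reads in each library. AGO2 was higher by 4-fold or more in 16 of them (27.6%) and FUBP3 in 8 (13.8%), and the median log2 ratio was 0.01. MIDN at 2.01 and ZNF275 at 1.961 stood on either side of the threshold in AGO2, and HMGB2 at -2.22 and CCNT1 at -1.69 in FUBP3. The split depends on the short RNAs in the AGO2 total. With clusters on short RNA genes removed, AGO2 led by 4-fold in 31 of 51 genes and FUBP3 in none, and the median moved to 2.28.

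The AGO2 side was led by VTRNA1-3, with 19098 AGO2 and 56 FUBP3 reads, and VTRNA1-2, with 19477 and 178. HIST1H4B, of histone H4, had 1856 and 63 reads, a log2 ratio of 7.39 (7.03 to 7.75). ERCC1, a DNA repair gene, had 937 and 154 reads, all of both proteins lying on the tRNA gene TRU-TCA1-1 in its deposited intron. The long noncoding RNA OIP5-AS1, known for a microRNA site of unusual length, had 134 and 82 reads, a log2 ratio of 3.22, and all its AGO2 reads were at FUBP3 clusters. At 1.5 U/ul it had 65 and 105 reads and a log2 ratio of 0.58, no longer past 4-fold.

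The FUBP3 side was led by PMAIP1, at a log2 ratio of -4.02 (-4.38 to -3.66) in all reads. RP6-24A23.7 had 50 AGO2 and 2485 FUBP3 reads, a log2 ratio of -3.13. ERC1, a scaffold protein, had 646 AGO2 and 27334 FUBP3 reads, mostly in introns, a log2 ratio of -2.89. A single ERC1 intron cluster of 1172 nt had 14571 FUBP3 reads. LINC00657, the NORAD noncoding RNA that binds Pumilio proteins, had 110 and 3242 reads, a log2 ratio of -2.37. ZNF711, a zinc finger factor, had 96 and 4087 reads and a log2 ratio of -2.90. SRSF2, NUFIP2 and HMGB2, at log2 ratios of -2.26, -2.25 and -2.22, took the opposite sign when short RNAs were left out.

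A shared gene often meant different sites here too. Of the 58 genes, 19 had no AGO2 read at a FUBP3 cluster, and the median gene had 27.2% of its AGO2 reads there. In 26 of the 58 genes the 3' UTR held more reads than any other region class in both libraries.

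The gene lists gave few genes deep enough in both libraries. Over all genes, 1470 had an AGO2 cluster and 11547 a FUBP3 cluster, and 76.9% of the AGO2 genes were shared. Shares among all annotated genes were not computed, so the counts for the lists cannot be set against them. Of 35 microRNA target mRNAs, 17 had an AGO2 cluster and 32 a FUBP3 cluster, and the 17 were all shared. In 3' UTR reads 6 were compared, 5 of them past 4-fold toward AGO2, where 61.8% were called among all genes compared. With 6 genes these shares cannot be told apart. The median log2 was 3.02 against 2.49 for all. E2F3, a cell cycle transcription factor, had 86 AGO2 and 569 FUBP3 3' UTR reads, with 2 of 6 AGO2 clusters overlapping. Of 22 mRNAs with AU-rich elements, which recruit decay factors, 7 had an AGO2 cluster and 19 a FUBP3 cluster, with 127 AGO2 and 5511 FUBP3 reads. CCND1, cyclin D1 and a member of both lists, had 18 and 964 3' UTR reads, and JUN had no AGO2 cluster and 749 FUBP3 reads.

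SR and hnRNP proteins had AGO2 clusters in 13 genes and FUBP3 clusters in 34. They held 0.107% of AGO2 reads and 1.41% of FUBP3 reads. The 4 genes compared in 3' UTRs had a median log2 of 0.24, against 2.49 for all genes compared. Ribosomal protein genes had AGO2 clusters in 30 genes and FUBP3 clusters in 64, at 0.230% and 0.210% of reads. RPLP1 had 98 AGO2 reads, mostly at the start codon, and 11 FUBP3 reads. Of 14 silencing factors 8 had an AGO2 cluster, the AGO2 gene itself included, and all 14 a FUBP3 cluster. Among them TNRC6A, the AGO2 partner, had 10 AGO2 and 184 FUBP3 3' UTR reads. Of the FUBP family, FUBP1 had no AGO2 and 737 FUBP3 reads and KHSRP had no AGO2 and 146 FUBP3 reads. Of 13 other KH-domain genes 4 had an AGO2 cluster and all 13 a FUBP3 cluster. IGF2BP1, a let-7 target, had 81 AGO2 and 17 FUBP3 3' UTR reads, and QKI had no AGO2 and 708 FUBP3 3' UTR reads. Of 15 long noncoding RNAs, 3 had an AGO2 cluster and 12 a FUBP3 cluster. MALAT1, a nuclear RNA, had 114 AGO2 and 1436 FUBP3 reads. The AGO2 reads lay in 1 cluster on the tRNA-like short RNA gene MASCRNA at its end and met no FUBP3 cluster.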

How the data were processed

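Each library's deposited file listed clusters with raw counts of reads and of distinct read sequences, and the T-to-C share as a fraction of reads, per the file headers. Per the submitters' processing notes the authors used bcl2fastq 2.20.0, cutadapt 1.15 and build hg38. The tools for alignment and for calling clusters, and the gene annotation, are not given in the sources used here. Reads outside clusters were not used here, so the total of reads in clusters stood for depth.

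Reads were summed per deposited gene name and divided by the library's total, or by its 3' UTR total. A sex-marking X-linked transcript and Y-linked genes were left out of gene tables. Gene names were checked by position against RefSeq, where 98.7% of AGO2 and 98.8% of FUBP3 clusters with a matched name lay in that gene. Short RNA genes came from RefSeq (GRCh38.p14) by position, without strand. Genes were compared with at least 50 reads in each library, or 20 in 3' UTRs, and called at 4-fold. Gaps ran between cluster edges in the same gene and strand, and spans over 30000 nt stayed out of the base coverage. Seeds were bases 2 to 8 of 14 microRNA families. The scripts were tested on simulated data. Genes were named by rule: the 10 highest and 10 lowest by log2 ratio in all reads and in 3' UTR reads, the 10 most read in each library, the 10 highest by the smaller 3' UTR share, the 10 most read 3' UTR genes without a cluster of the other protein, the 10 strongest overlapping pairs, and up to 4 genes per list with at least 50 reads. The members and lists were chosen with earlier results of these data known. Software was Python 3.11.15, numpy 2.4.6, pandas 2.3.3 and matplotlib 3.10.9. Alternatives tried were larger or better supported clusters, the most read FUBP3 clusters only, the 1.5 U/ul libraries, other minimums and other scalings.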

Additional observations from a re-analysis of the deposited data

Results flagged for a closer look

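Among named genes with at least 50 reads, or 20 in 3' UTRs, in each library at both doses, the sign of the log2 ratio of AGO2 over FUBP3 was not the same at 1.5 U/ul as at 0.15 U/ul in 4, and the difference was not tested, with 1 library each. In share of 3' UTR reads, SRSF2 stood at 0.69 at 0.15 U/ul and -0.018 at 1.5 U/ul, ARPP19 at -0.82 and 0.13, and TSPYL1 at -0.14 and 1.68. In share of all reads, PRICKLE1 stood at 0.82 at 0.15 U/ul and -0.32 at 1.5 U/ul. Below that minimum at 1.5 U/ul, NUFIP2 stood at 1.01 and -1.14 in 3' UTR reads, with 10 AGO2 reads at 1.5 U/ul, and CCNT1 at 0.90 and -0.013, with 18.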

How the results depend on the processing

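No paired analysis was possible because each protein had 1 library at this RNase dose. The minimums on reads and distinct sequences and the 1.5 U/ul setting change both libraries. Where no construction is named the cause was not tested. The difference in percent of clusters in 3' UTRs, AGO2 minus FUBP3, was 19.7 points. It was -14.0 with at least 10 reads per cluster, -24.9 with at least 3 distinct sequences, -46.9 against the most read FUBP3 clusters and 9.05 at 1.5 U/ul. The difference in percent of reads, -33.2 points, was -56.9, -68.4, -73.8 and -28.0 under the same settings in the same order. Of AGO2 3' UTR genes 89.2% were shared, against 81.7%, 74.7%, 28.3% and 79.5% under them, and 86.1% with at least 10 reads per gene. Overlap of 37.2% became 41.4% with 10 reads, 29.2% against the most read, 24.3% at 1.5 U/ul, 11.6% when 50% of each cluster had to overlap, and 41.0% with FUBP3 at 0.5 U/ul, a setting chosen after seeing the data. The median gap of 22 nt became 42 nt with 3 distinct sequences in both libraries, 130 nt against the most read, 69 nt at 1.5 U/ul and 61.5 nt between centres. The difference in seed matches, 30.5 points, was 37.0 with 10 reads, 22.3 against the most read, 26.9 at 1.5 U/ul and 26.2 by reads. The T-to-C difference of -16.7 points was 16.7 with 3 distinct sequences and -15.5 at 1.5 U/ul, both chosen after seeing the data.

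In all reads, AGO2 led by 4-fold in 16 genes and FUBP3 in 8. These counts were 10 and 15 with 3 distinct sequences, 6 and 5 at 1.5 U/ul, 101 and 142 with a minimum of 10 reads, 1 and 1 with 200, and 31 and 0 without short RNA genes, whose removal shrinks the AGO2 total. The median log2 of 0.01 was -1.08 with 3 distinct sequences, -0.66 and -1.25 with minimums of 10 and 200, and 2.28 without short RNA genes, where SRSF2 stood at 0.10, NUFIP2 at 0.11 and HMGB2 at 0.15. In 3' UTR reads, the 68 genes led by AGO2 became 42 at 1.5 U/ul, 22 with median scaling and 16 with a minimum of 50 reads, and the 0 led by FUBP3 became 16 with median scaling. The median of 2.49 was 0 by construction with median scaling and 3.07 with a minimum of 50. Under median scaling the 3' UTR medians were 0.53 for microRNA targets and 6.56 for histones. Among the main results, 40 values were kept under the alternative settings, 46 moved and 4 were counted as reversed. A change of sign in a median log2 ratio within 4-fold was not counted as reversed. Among values of named genes and counts of genes compared, 147 were kept under the alternative settings, 85 moved and 3 changed sign. A value of a named gene was kept if it stayed within its counting interval. Counts of genes have no such interval and were kept if they stayed within 1.5-fold. The 3 were log2 ratios of named genes past 4-fold, all without short RNA genes. Sign changes at 1.5 U/ul of values within 4-fold are not among those 3. AGO2 depth limits the rest: 20 AGO2 3' UTR reads equal 1065 FUBP3 reads in share.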
